A study of Mus musculus with 6 samples.

Results

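Chemoattractant receptors are the surface sensors by which neutrophils and monocytes find their way out of the bone marrow and into inflamed tissue. The members described here are 10 genes, Fpr1, Fpr2, Cxcr2, Cxcr4, Ltb4r1, C5ar1, C3ar1, Ccr1, Ccr2 and Cx3cr1. They were read from every probe set of the array to which the platform annotation gives exactly 1 gene symbol, that symbol being a member's. The rule found 17 probe sets of 9 genes among the 45037 probe sets tested, and no probe set carried Fpr1 as its single symbol. The bone marrow came from adult female F1 mice, with no treatment named, of 2 crosses to FVB/NJ, (AKR/J x FVB/NJ)F1 and (DBA/2J x FVB/NJ)F1, called AKR F1 and DBA F1 here. Each cross had 3 Affymetrix arrays, and the design asked how basal gene expression differs between the genotypes. All mice carry 1 FVB/NJ genome, so the crosses differ only in the other parental genome. The labels do not tie arrays to animals and do not state pooling, so p-values here measure only the spread between 3 arrays a cross, which may be technical. Values are log2 expression values, and every difference is that of AKR F1 minus that of DBA F1.

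All 10 receptors belong to the large family of G protein-coupled receptors. A ligand on the outside of the cell makes the receptor release an inhibitory G protein inside, whose subunits activate phosphoinositide 3-kinase and phospholipase C and steer the cytoskeleton towards the source of the ligand. Kinases and arrestins then switch the receptor off. In the marrow the balance between Cxcr4, which holds neutrophils in place, and Cxcr2, which draws them out, sets their release, and Ccr2 plays the corresponding part in the release of inflammatory monocytes.

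Genes of neutrophils, their precursors and red cells read high in both crosses, which does not give the share of any cell type. The neutrophil gene S100a8 averaged 14.36 in AKR F1 and 14.39 in DBA F1, and Mpo, the myeloperoxidase of neutrophil precursors, 13.53 and 13.19 in the same order. The red cell enzyme Alas2 averaged 13.27 in AKR F1 and 12.93 in DBA F1. The arrays had medians between 5.14 and 5.19, and DBA F1 replicate 1 stood apart from the others on the second principal component, which held 18.6% of the variance between arrays. Controls and a marker list also differed between the crosses. The 3' to 5' index, which compares probe sets at both ends of the control transcripts on the log2 scale, was 1.25, 2.03 and 1.80 in AKR F1 replicates 1 to 3, against 1.23, 1.09 and 1.03 in DBA F1. The hybridization controls averaged 10.19 ± 0.10 in AKR F1 and 10.78 ± 0.22 in DBA F1 (SD, n = 3 each). The 18 skeletal muscle genes averaged 7.17 ± 0.63 in AKR F1 and 9.57 ± 1.35 in DBA F1 (SD, n = 3 each). Their mean was 11.04, 8.38 and 9.31 in DBA F1 replicates 1 to 3. By limma on genes 11 of them were lower in AKR F1, or 61.1%, where 15.2% of all genes passed and 6.03% were lower. Values with these measures as covariates are given below.

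Of the 17 receptor probe sets, 3 were lower in AKR F1 and none was higher by limma with Benjamini-Hochberg adjustment over all 45037 probe sets. They belong to Fpr2, Ccr1 and Ccr2. The share of 17.6% compares with 12.3% of all probe sets past the same test, or 6.73% lower and 5.57% higher. At an unadjusted p under 0.05 in limma the count was 7. The share of all probe sets at that cut was not counted here, so this 7 cannot be set against it. The median difference over the 17 was 0.07, against 0.03 over all probe sets. In 8 of the 17 the arrays of the crosses did not overlap, 6 with AKR F1 below and 2 with AKR F1 above. That is 47.1% where 33% of all probe sets did so, and 14.9% of all did so with AKR F1 below. A test on the brightest probe set of each of 18194 genes called Fpr2, Cxcr2 and Ccr1, all lower, that is 3 of 9 receptors where 15.2% of genes passed, 6.03% lower and 9.2% higher. The arrays of the crosses did not overlap for 5 of the 9 receptors by this measure, against 36.6% of genes. Of these 3 calls, 3 were also made without AKR F1 replicate 1, and 1 in each of the other 5 fits that left out 1 array. Since this is whole marrow, fewer cells of a type and less RNA per cell cannot be told apart in any of these values.

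**Figure D1:**
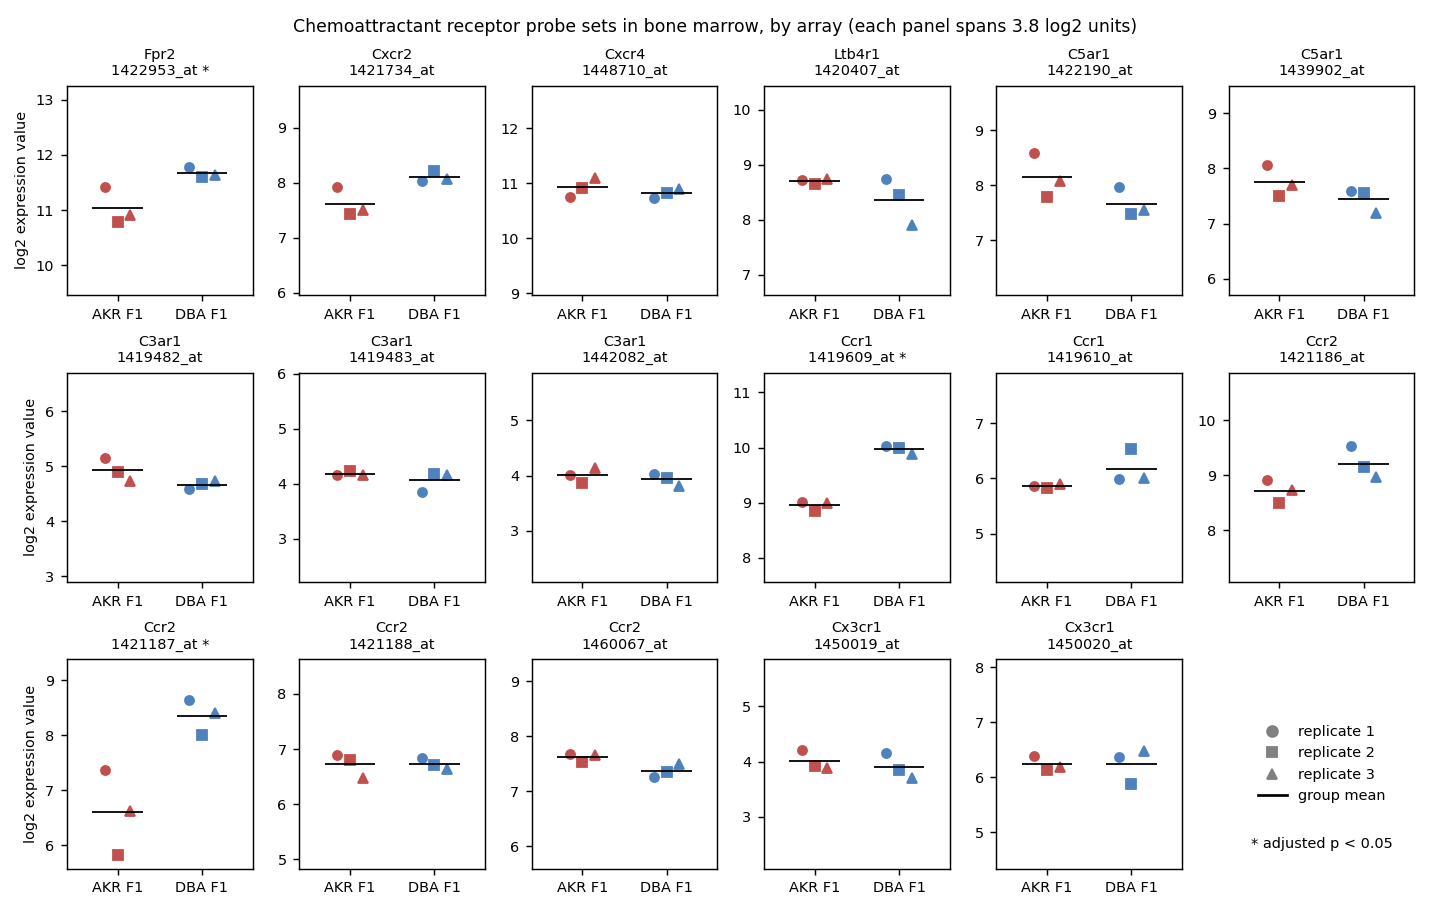
Log2 expression value of each of the 17 receptor probe sets in the 3 AKR F1 arrays (red, left) and the 3 DBA F1 arrays (blue, right), with marker shape giving the replicate and a line the group mean; an asterisk marks adjusted p under 0.05 in limma. The Ccr1 probe set 1419609_at separates the crosses with little spread, and the 4 Ccr2 probe sets do not follow each other.

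The promoters of the 3 receptors that had a called probe set, in each case lower in AKR F1, are shown. Other probe sets of Ccr1 and Ccr2 did not pass. Each promoter runs from 250 bases before to 50 after a transcript start. For Ccr2 this start lies past the first annotated base of the gene, and all 300 bases shown lie within the annotated gene. The promoters are RefSeq sequences of build GRCm38.p6, the C57BL/6J reference, and not those of AKR/J, DBA/2J or FVB/NJ. Ccr1 is at chr9:123968643-123968942 on the minus strand, Ccr2 at chr9:124101933-124102232 on the plus strand and Fpr2 at chr17:17887574-17887873 on the plus strand. Capitals mark matches on either strand to AGGAAG, an ETS core with flanks, TTNNGNAA, a loose C/EBP pattern, and TGTGGT, a RUNX pattern.
Ccr1: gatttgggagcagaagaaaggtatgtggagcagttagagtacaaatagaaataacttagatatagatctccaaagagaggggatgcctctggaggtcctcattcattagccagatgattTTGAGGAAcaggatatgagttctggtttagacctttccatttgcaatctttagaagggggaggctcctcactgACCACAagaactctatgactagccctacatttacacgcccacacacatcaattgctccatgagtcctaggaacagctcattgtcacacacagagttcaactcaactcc
Ccr2: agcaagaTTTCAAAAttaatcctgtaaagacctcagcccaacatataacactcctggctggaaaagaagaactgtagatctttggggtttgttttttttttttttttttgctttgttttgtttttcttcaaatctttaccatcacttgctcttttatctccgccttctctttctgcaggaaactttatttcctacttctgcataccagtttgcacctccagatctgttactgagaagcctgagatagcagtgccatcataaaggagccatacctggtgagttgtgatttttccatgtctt
Fpr2: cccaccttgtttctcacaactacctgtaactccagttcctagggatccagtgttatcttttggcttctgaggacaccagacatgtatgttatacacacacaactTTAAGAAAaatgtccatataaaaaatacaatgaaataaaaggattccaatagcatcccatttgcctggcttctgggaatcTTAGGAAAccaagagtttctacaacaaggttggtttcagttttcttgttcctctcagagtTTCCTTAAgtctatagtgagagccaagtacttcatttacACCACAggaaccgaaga
Ccr1 had 1 C/EBP and 1 RUNX match, Ccr2 had 1 C/EBP match, and Fpr2 had 3 C/EBP matches and 1 RUNX match. None of the 3 held the ETS pattern, while the promoter of Cxcr2, called only in the test on genes and not shown, had 2 matches to it. Of 32851 promoters of the same length, 40.7% held the C/EBP pattern, 16.8% the RUNX pattern and 35.4% the ETS pattern, so such matches are common, and they are descriptions of these letters only.

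Among the called probe sets, that of Ccr1 had the smallest SE. The gene encodes a receptor for Ccl3, Ccl5, Ccl6 and Ccl9 on neutrophils, monocytes and their precursors. Its brighter probe set, 1419609_at, read 9.01, 8.85 and 8.99 in AKR F1 replicates 1 to 3, against 10.03, 9.996 and 9.88 in DBA F1. All AKR F1 arrays lay well below all DBA F1 arrays, and neither group spanned more than a small part of the gap. The difference was -1.02 (SE 0.09, adjusted p = 0.00143 in limma), which is 2.03-fold lower in AKR F1. It passed in each of the 6 fits that left out 1 array, with differences from -1.06 to -0.97.

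The dimmer Ccr1 probe set, 1419610_at, read 5.87, 5.83 and 5.91 in AKR F1, against 5.98, 6.54 and 6.002 in DBA F1. AKR F1 was again below without overlap, but DBA F1 replicate 2 stood above the other DBA F1 arrays. Its difference of -0.31 (SE 0.15, adjusted p = 0.237 in limma) did not pass the threshold. Both probe sets were designed from the same transcript record according to the annotation. Probe sequences were not used here, so strain variants under the probes, or reads from close copies among the chemokine receptor genes, were not tested for Ccr1 or for any other member.

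Ccr2 encodes the receptor for Ccl2, Ccl7 and Ccl12 on inflammatory monocytes, and its 4 probe sets gave different answers. Probe set 1421187_at read 7.37, 5.82 and 6.63 in AKR F1, against 8.63, 8.01 and 8.40 in DBA F1. The AKR F1 arrays were all lower and were spread widely, with replicate 1 nearest to DBA F1. The difference was -1.74 (SE 0.35, adjusted p = 0.0173 in limma), 3.34-fold lower in AKR F1. Without AKR F1 replicate 3 it was -1.75 and missed the threshold (adjusted p = 0.0676 in limma), and it passed in the other 5 fits that left out 1 array.

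The brightest Ccr2 probe set, 1421186_at, read 8.91, 8.49 and 8.74 in AKR F1, against 9.52, 9.14 and 8.96 in DBA F1. The groups did not overlap, though AKR F1 replicate 1 and DBA F1 replicate 3 nearly met. Its difference was -0.50 (95% interval -0.87 to -0.12, adjusted p = 0.0882 in limma). Probe set 1421188_at, designed from the same record as these, differed by -0.0072 (interval -0.29 to 0.28), and its groups overlapped. Probe set 1460067_at, from another record, went the other way, at 7.67, 7.52 and 7.66 in AKR F1 against 7.26, 7.34 and 7.50 in DBA F1, with AKR F1 above without overlap. Its difference of 0.25 (interval 0.02 to 0.48) had adjusted p = 0.147 in limma. The mean of the 4 probe sets differed by -0.50 (adjusted p = 0.0502 in limma), so a level of Ccr2 as a gene depends on which probe set is read.

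Cx3cr1, the fractalkine receptor of patrolling monocytes, had 2 probe sets and neither passed. The brighter one, 1450020_at, read 6.39, 6.13 and 6.19 in AKR F1 and 6.38, 5.88 and 6.47 in DBA F1, with -0.0045 between the means (interval -0.37 to 0.36). The dimmer one, 1450019_at, averaged 4.005 ± 0.18 in AKR F1 and 3.90 ± 0.23 in DBA F1 (SD, n = 3 each). Both pairs of groups overlapped. Differences up to about the size of those intervals could not be seen with 3 arrays a group.

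**Figure D2:**
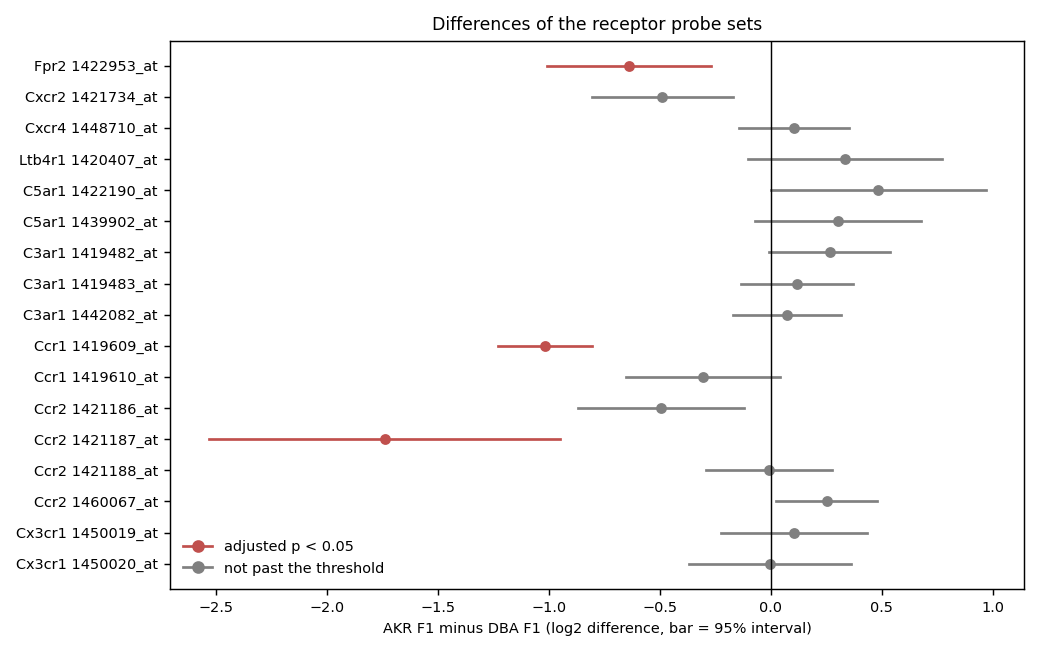
Log2 difference between AKR F1 and DBA F1 (AKR F1 minus DBA F1, horizontal axis) of each receptor probe set (point), with the 95% interval of the limma fit (bar) and the probe sets with adjusted p under 0.05 in red. The Ccr1 probe set 1419609_at has the narrowest interval of the 3 called probe sets, and Ccr2 spans from -1.74 to 0.25 over its 4 probe sets.

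Fpr2 encodes a formyl peptide receptor, which senses peptides from bacteria and damaged mitochondria and also binds annexin A1. Its signal lay at or above the 97.2 percentile of probe sets on every array. Its only probe set, 1422953_at, read 11.42, 10.79 and 10.91 in AKR F1, against 11.79, 11.60 and 11.64 in DBA F1. All AKR F1 arrays were lower, and AKR F1 replicate 1 was nearest to DBA F1. The difference was -0.64 (SE 0.16, adjusted p = 0.0375 in limma), 1.56-fold lower in AKR F1. Leaving out 1 array ended this call except for AKR F1 replicate 1, without which it was -0.83 (adjusted p = 0.0081 in limma). Without AKR F1 replicates 2 and 3 it was -0.51 (adjusted p = 0.126) and -0.58 (adjusted p = 0.134), and without DBA F1 replicates 1, 2 and 3 it was -0.59, -0.68 and -0.66 (adjusted p = 0.0807, 0.0825 and 0.0732), all in limma.

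Cxcr2 encodes the receptor for Cxcl1, Cxcl2 and related chemokines that draws neutrophils out of the marrow. Its probe set 1421734_at read 7.92, 7.42 and 7.50 in AKR F1, against 8.04, 8.21 and 8.07 in DBA F1. AKR F1 was lower without overlap, again with replicate 1 closest to DBA F1. The difference of -0.49 (SE 0.14) had adjusted p = 0.0561 in limma over all probe sets and 0.0464 over 1 probe set per gene, so it lies at the threshold. Without AKR F1 replicate 1 it was -0.64 (adjusted p = 0.0153 over all probe sets in limma). The other 5 fits that left out 1 array did not pass, with differences from -0.52 to -0.39 and adjusted p from 0.076 to 0.183 in limma.

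Cxcr4 encodes the receptor for Cxcl12, the chemokine of marrow stroma that retains neutrophils and stem cells. It read 10.76, 10.92 and 11.09 in AKR F1 and 10.73, 10.82 and 10.89 in DBA F1. The groups overlapped, and the difference was 0.10 (interval -0.14 to 0.35, adjusted p = 0.593 in limma). Within each array the Cxcr2 value minus the Cxcr4 value averaged -3.31 ± 0.41 in AKR F1 and -2.71 ± 0.10 in DBA F1 (SD, n = 3 each), where only the change and not the level of this ratio has a meaning. It was lower in all 3 AKR F1 arrays, though AKR F1 replicate 1 (-2.83) and DBA F1 replicate 3 (-2.82) nearly met. The means differed by -0.59 on the log2 scale, with p = 0.1 in a two-sided exact permutation test. This is the smallest p that 3 against 3 arrays allow, and it was 0.15 adjusted over the 3 receptor pairs compared (exact permutation).

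The other pairs were Ccr2 against Ccr1 and C5ar1 against C3ar1. The Ccr2 value minus the Ccr1 value, from their brightest probe sets, averaged -0.24 ± 0.13 in AKR F1 and -0.76 ± 0.22 in DBA F1 (exact permutation p = 0.1, adjusted 0.15, n = 3 each). The value was higher in every AKR F1 array than in any DBA F1 array, without passing the test. Its direction depends on the probe sets, since this Ccr2 value is from 1421186_at: with 1421187_at the difference between the crosses was -0.72 with overlap, and with the dimmer Ccr1 probe set -0.19 with overlap. With the Ccr2 probe sets 1421188_at and 1460067_at it was 1.01 and 1.27, with AKR F1 above. For C5ar1 minus C3ar1 the groups overlapped (exact permutation p = 0.3, n = 3 each). A pair of Fpr2 with Fpr1 was not analysed here.

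The complement receptors and the leukotriene receptor did not pass, and their brightest probe sets lay higher in AKR F1 on average. C5ar1, the receptor for the complement fragment C5a, read 8.59, 7.79 and 8.08 in AKR F1 and 7.98, 7.47 and 7.55 in DBA F1 at probe set 1422190_at. The groups overlapped through AKR F1 replicate 2, and the difference was 0.48 (interval 0.00087 to 0.97, adjusted p = 0.182 in limma). Its second probe set, 1439902_at, differed by 0.30 (interval -0.07 to 0.68) and also overlapped. In both C5ar1 probe sets AKR F1 replicate 1 was the highest array, and without it the difference of 1422190_at was 0.27.

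Ltb4r1, the high-affinity receptor for leukotriene B4, read 8.73, 8.64 and 8.73 in AKR F1 and 8.75, 8.45 and 7.90 in DBA F1. The AKR F1 arrays were nearly alike while DBA F1 replicate 3 was low. The difference was 0.33 (interval -0.10 to 0.77, adjusted p = 0.309 in limma), and 0.10 without DBA F1 replicate 3. C3ar1, the receptor for the complement fragment C3a, was dim: its 3 probe sets lay between the 26.7 and 49.9 percentiles of probe sets on the arrays, and no detection calls were used here. Its brightest probe set, 1419482_at, read 5.16, 4.90 and 4.74 in AKR F1 and 4.60, 4.67 and 4.74 in DBA F1, with AKR F1 barely above and a difference of 0.26 (adjusted p = 0.198 in limma). The other C3ar1 probe sets differed by 0.12 and 0.07.

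Within AKR F1, some of the lower receptors ran with the 3' to 5' index of the control transcripts. Among these arrays, replicate 1 had the lowest index and the highest value of Fpr2, Cxcr2 and the Ccr2 probe set 1421187_at, and replicate 2 had the highest index and the lowest value of each. Within DBA F1 this order did not hold: replicate 1 had the highest index and also the highest Fpr2 and Ccr2 1421187_at, and Cxcr2 was highest in replicate 2. The AKR F1 order was not particular to these probe sets. Ccr1 1419609_at had it over a small range, at 9.01, 8.85 and 8.99 in replicates 1 to 3. Ccr2 1421186_at had it too, at 8.91, 8.49 and 8.74, as did both C5ar1 probe sets, which lay higher in AKR F1 on average. In DBA F1, Ccr1 1419609_at lay between 9.88 and 10.03. With the index as a covariate the difference of Fpr2 became -0.22 (adjusted p = 0.659), that of Cxcr2 -0.11 (adjusted p = 0.805) and that of Ccr2 1421187_at -0.78 (adjusted p = 0.392), all in limma. Ccr1 1419609_at had -0.95, with adjusted p = 0.0759 in limma. With the hybridization controls as a covariate the differences were -1.10 for Fpr2, -0.54 for Cxcr2, -2.91 for Ccr2 1421187_at and -1.02 for Ccr1 (adjusted p = 0.356, 0.63, 0.28 and 0.262 in limma). With the skeletal muscle list mean they were -0.56, -0.64, -1.61 and -1.02 in the same order (adjusted p = 0.381, 0.244, 0.25 and 0.0763 in limma). So the sizes shrank for Fpr2, Cxcr2 and Ccr2 with the index, while with the other 2 covariates they were near to or above those without one, and no receptor probe set passed in any of these 3 fits. The crosses do not overlap in any of these 3 measures, so their part in the differences cannot be told apart from that of the cross.

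**Figure D3:**
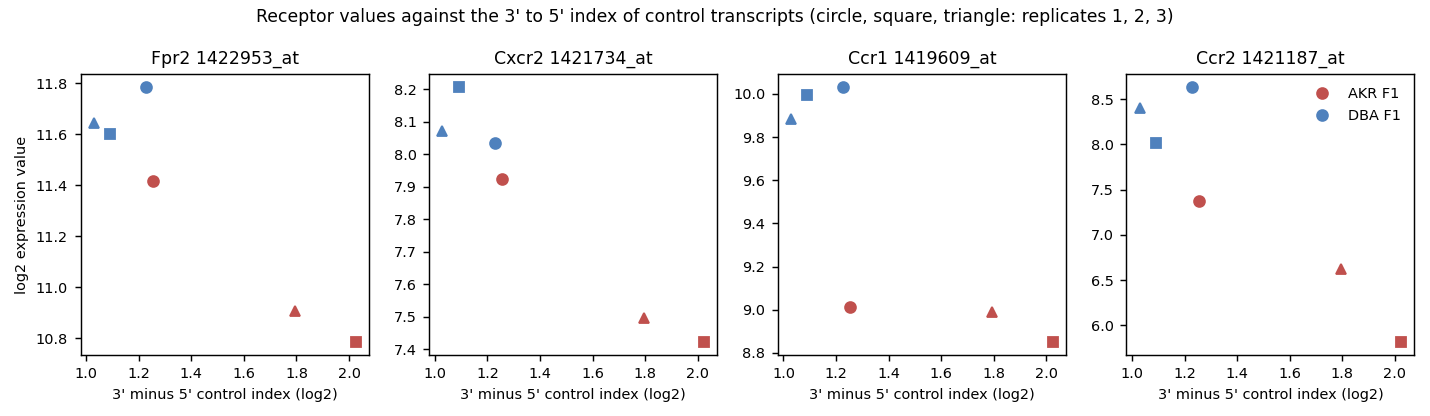
Log2 expression value of 4 receptor probe sets (vertical axes) against the 3' to 5' index of control transcripts (horizontal axes, log2 difference) in each array, AKR F1 in red and DBA F1 in blue, with marker shape giving the replicate. Fpr2, Cxcr2 and Ccr2 1421187_at are lowest in the AKR F1 arrays with the highest index, at 1.80 and 2.03, while Ccr1 is near 9 in all 3 AKR F1 arrays, including the one at 1.25.

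Set against markers of the cells that carry them, Fpr2, Cxcr2, Ccr1 and Ccr2, each read from its brightest probe set, lay lower in AKR F1. Fpr2 minus the mean of the mature neutrophil markers averaged 0.05 ± 0.22 in AKR F1 and 0.77 ± 0.21 in DBA F1, and Cxcr2 minus the same mean -3.38 ± 0.15 in AKR F1 and -2.80 ± 0.22 in DBA F1 (SD, n = 3 each). Ccr1 minus the mean of the monocyte markers averaged -0.58 ± 0.05 in AKR F1 and 0.40 ± 0.09 in DBA F1, and Ccr2 1421186_at minus the same mean -0.82 ± 0.16 in AKR F1 and -0.36 ± 0.15 in DBA F1 (SD, n = 3 each). In these 4 the groups did not overlap, and each had p = 0.1 in a two-sided exact permutation test, the smallest possible, or 0.225 adjusted over the 9 receptors compared this way. With the dimmer Ccr1 probe set, 1419610_at, the groups overlapped and the difference between the crosses was -0.26 (exact permutation p = 0.4). For Ccr2 the direction again depends on the probe set, with differences between the crosses of -1.70 for 1421187_at, 0.04 for 1421188_at and 0.29 for 1460067_at. For Cxcr4 and Cx3cr1 the corresponding differences between the crosses were 0.02 and 0.04 (exact permutation p = 1 and 0.8, n = 3 each). C5ar1, C3ar1 and Ltb4r1 went the other way, by 0.40, 0.31 and 0.25, with overlap (exact permutation p = 0.3, 0.2 and 0.2). With the second C5ar1 probe set, 1439902_at, AKR F1 was above without overlap, by 0.21 (exact permutation p = 0.1).

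The marker lists of the cells that carry these receptors are given against the 15.2% of all genes that passed. Of 21 mature neutrophil markers, 2 were lower in AKR F1, the lectin receptor gene Clec4e (-0.52) and the integrin gene Itgam (-0.999), and none was higher by limma on genes, or 9.52% in all. The list median was 0.16, against 0.06 over all genes. The summed level of the list, as its mean, ranged from 10.91 to 11.13 in AKR F1 and from 10.64 to 11.06 in DBA F1. Of 14 monocyte markers 1 passed (7.14%), F13a1 (-0.57), with a list median of 0.04 and list means from 9.48 to 9.59 in AKR F1 and from 9.47 to 9.73 in DBA F1. Of 8 neutrophil precursor markers Cebpa (0.89) and Elane (0.82) were higher (25%). Of these 8, 6 had a difference above 0, while Ctsg (-0.26) and Gfi1 (-0.17) lay below 0 without passing. Of 13 macrophage markers 5 were higher (38.5%), C1qc, Marco, C1qb, C1qa and Mertk. Of these 13, 8 had a difference above 0. The macrophage marker Mrc1 was lower without overlap but did not pass (-0.40, adjusted p = 0.0576 in limma). The other probe sets of C1qb (0.17 and 0.29) and Marco (0.28) did not pass. Markers of other marrow cells also passed, 5 of 10 erythroid markers (50%), all higher in AKR F1, 5 of 11 T and NK cell markers (45.5%; 3 higher, 2 lower) and 3 of 11 B cell markers (27.3%; 1 higher, 2 lower). Leaving out 1 array moved these small counts: neither mature neutrophil call was made without AKR F1 replicate 2, AKR F1 replicate 3 or DBA F1 replicate 2, and no precursor marker passed without any 1 of the AKR F1 arrays. The macrophage count was 2, 2 and 0 without AKR F1 replicates 1, 2 and 3. No call in any of these lists was made with the index, the hybridization controls or the muscle list mean as a covariate.

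Few ligands of the receptors passed the test. Of 24 measured genes of ligands and their synthesis, 2 were higher in AKR F1, none was lower and 22 did not pass, which is 8.33% where 15.2% of all genes passed, with a list median of -0.0018. Mif, a cytokine that binds Cxcr2 and Cxcr4, averaged 11.06 ± 0.04 in AKR F1 and 10.45 ± 0.24 in DBA F1 (SD, n = 3 each), and the difference was 0.61 (adjusted p = 0.0171 in limma). The 2 further Mif probe sets differed by 0.06 and 0.35 and did not pass. Ccl8, a ligand of CC chemokine receptors, differed by 0.47 (adjusted p = 0.0463 in limma). Neither call was made without any 1 of the AKR F1 arrays, nor with any of the 3 covariates. Cxcl12, the ligand of Cxcr4, averaged 11.56 ± 0.21 in AKR F1 and 11.66 ± 0.15 in DBA F1 (SD, n = 3 each). Anxa1, a ligand of Fpr2, differed by -0.15, and Alox5, Alox5ap and Lta4h, the genes that make leukotriene B4, by 0.19, 0.03 and -0.06. None of these passed.

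The further receptors of this kind gave 1 call. Of 23 further chemoattractant receptor genes with a probe set, Cxcr3, the receptor of interferon-induced chemokines on T and NK cells, was higher in AKR F1 (difference 0.36, adjusted p = 0.0334 in limma). The other 22 did not pass, so that 4.35% of this list passed where 15.2% of all genes did and 9.2% were higher, and the list median was -0.04. The Cxcr3 call was made in none of the 6 fits that left out 1 array, nor with any of the 3 covariates. Several of these genes lie beside Ccr1 and Ccr2 in the chemokine receptor cluster of chromosome 9. Within 300 kb of Ccr1, 8 other genes were measured, and none passed by limma on genes where 15.2% of all genes did, among them Ccr3 (-0.22), Xcr1 (-0.06), Cxcr6 (-0.06) and Ccr9 (-0.09). Lztfl1 in the same window differed by -0.33 (adjusted p = 0.058 in limma). Fyco1 differed by 0.31, with AKR F1 above without overlap (adjusted p = 0.109 in limma). The rest were Ccr1l1 (0.20) and Ccr2 (-0.50). Within 300 kb of Ccr2, 2 of 7 passed, Ccr1 and 2010315B03Rik, which was higher in AKR F1 (0.56, adjusted p = 0.0216 in limma). These windows were chosen after the values were known. Around Fpr2 on chromosome 17, 3 genes were measured within the same distance, Has1, Fpr-rs4 and Spaca6, and none passed.

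Genes that act after the receptor showed more calls and moved both ways. Of 32 measured genes of receptor signalling and its shutdown, 7 passed as higher and 3 as lower in AKR F1, while 22 missed the threshold, which is 31.2% where 15.2% of all genes passed, with a list median of 0.24. Pik3cg, the catalytic subunit of the phosphoinositide 3-kinase that G proteins activate, differed by 0.91 at its brightest probe set (adjusted p = 0.0036 in limma), while its other probe set differed by -0.57 and passed in that direction (adjusted p = 0.0101 in limma), so no direction can be given for the gene. The G protein subunit genes Gnb2 (0.74), Gnb1 (0.38) and Gna15 (0.64) were higher and Gnai3 (-0.54), an inhibitory alpha subunit, was lower. The further Gnb1 probe sets differed by 0.22 and 0.29 without passing, and the other Gnai3 probe set by -0.57 (adjusted p = 0.0267 in limma over probe sets). Arrb1, the gene of an arrestin that switches receptors off, was higher by 0.63 (adjusted p = 0.00846 in limma). Plcb3, a phospholipase C gene, and Ncf4, of the phagocyte oxidase, were higher by 0.53 and 0.57.

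Of the regulators of G protein signalling, which shorten the G protein signal, Rgs18 and Rgs2 passed, both lower. Rgs18, the member found in platelets and myeloid cells, read 9.74, 9.43 and 9.58 in AKR F1, against 10.32, 10.50 and 10.55 in DBA F1. The groups were well apart, with a difference of -0.87 (adjusted p = 0.00413 in limma), and its other probe set differed by -0.63 (adjusted p = 0.00718 in limma over probe sets). Rgs2 differed by -0.63 (adjusted p = 0.048 in limma), and its other 3 probe sets by -0.38, -0.25 and -0.16 without passing. Rgs14 differed by 0.44 with AKR F1 above without overlap but did not pass (adjusted p = 0.0828 in limma), and Rgs1 and Rgs19 did not pass, with overlap. Of the 10 calls in the signalling list, 5, 3 and 3 were also made without AKR F1 replicates 1, 2 and 3, and 9, 6 and 8 without DBA F1 replicates 1, 2 and 3. None was made with the muscle list mean, the index or the hybridization controls as a covariate.

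**Figure D4:**
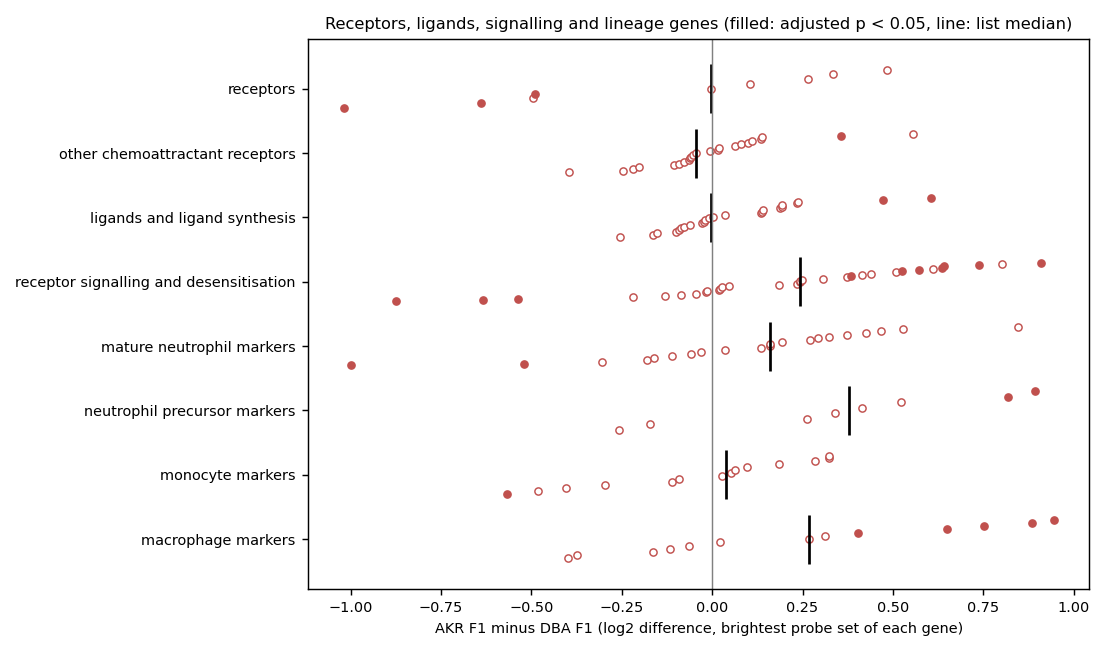
AKR F1 minus DBA F1 (log2 difference) of each measured gene, from its brightest probe set, in 8 lists; filled points have adjusted p under 0.05 in limma on genes and the line is the list median. The receptors reach from -1.02 to 0.48, both called ligands lie above 0, and signalling genes passed on both sides of 0.

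The profiles most like those of the 3 called receptor probe sets came from genes of other kinds. Likeness was the root mean square difference over the 6 arrays, each gene centred on its own mean. Closest to Ccr1 1419609_at were Ing3 (0.02), Tspan2 (0.04) and Usp33 (0.04). Closest to Fpr2 were Pdia3 (0.04), Rnf4 (0.05) and Syncrip (0.06), and closest to Ccr2 1421187_at Ptp4a2 (0.23), Nop58 (0.26) and Enpp5 (0.31). With 18194 genes and 6 arrays, such likeness is a description of these arrays.

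**Figure D5:**
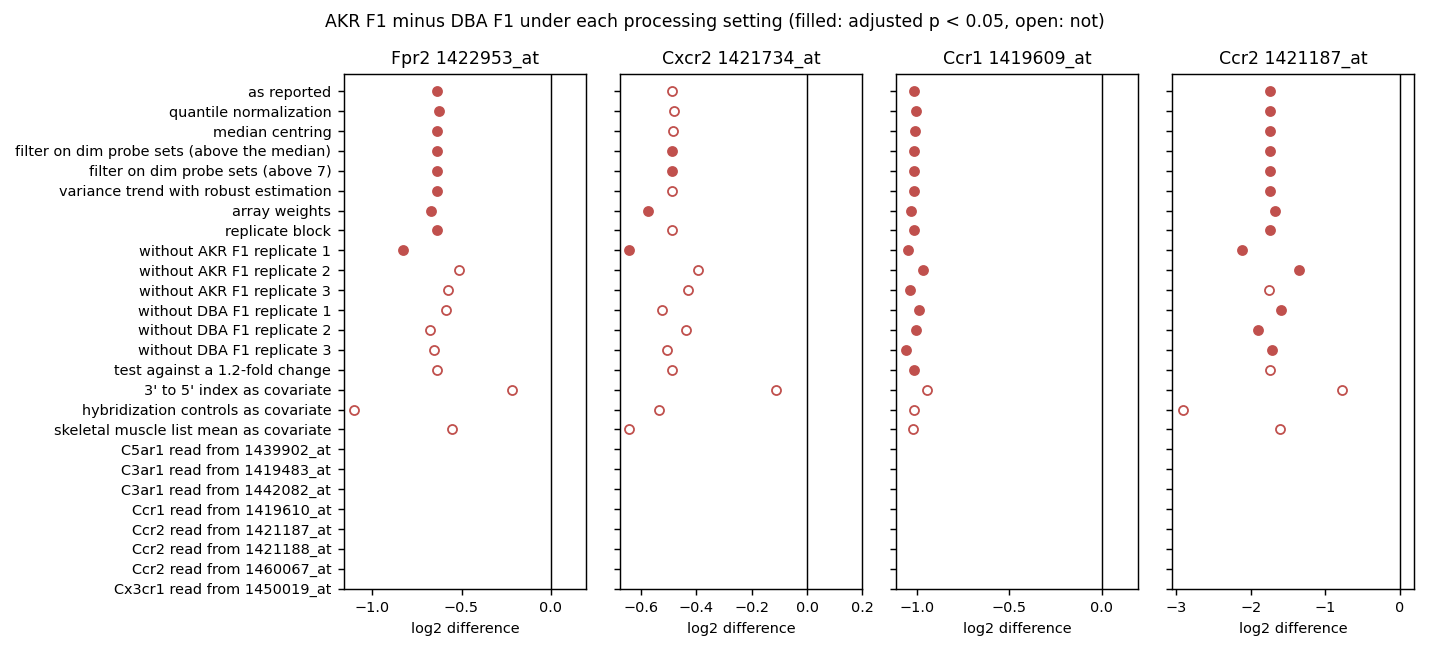
AKR F1 minus DBA F1 (log2 difference, horizontal axes) of 4 receptor probe sets under each processing setting (vertical axis), with filled points for adjusted p under 0.05 in limma. Ccr1 lies between -1.06 and -0.95 in every setting shown, while Fpr2 runs from -1.10 to -0.22.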

How the data were processed

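Total RNA from snap-frozen marrow was extracted with Trizol and labelled by the array maker's protocol, per the labels. The values deposited by the authors are on a log2 scale, judged by their range, cover 45101 probe sets on 6 arrays, and have nearly equal quartiles on every array. RMA and MAS5 are named by the submitters' processing notes, with no role or version for either, and the genome build, scan dates and detection calls are not given in the sources used here. After the 64 control probe sets were left out, 45037 were tested, of which the platform annotation gives 1 symbol to 34945, several to 932 and none to 9160. Symbols were updated by gene ID through a gene table of assembly GRCm38.p6. The number of arrays limits the precision.

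The test was limma 3.58.1 in R 4.3.3 (lmFit, eBayes), AKR F1 minus DBA F1 over 6 arrays, which leaves 4 residual degrees of freedom. P-values are two-sided and adjusted by Benjamini and Hochberg's method, with calls at 0.05. The receptors were read from the fit to every probe set, and the lists from the fit to the brightest probe set of each of 18194 genes. Ratios within arrays were compared with two-sided exact permutation tests over 20 splits of the arrays. The fit was tested on simulated data.

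The members, the lists of ligands, signalling genes and markers, and the settings were chosen with earlier results of these data known. Genes named are every member probe set and the 3 nearest profiles of each called probe set. Named too are the genes past the test in the receptor, ligand, signalling, neutrophil, monocyte and macrophage lists. The other marker lists are given mainly as counts. Of other list members, some with a known role are named with their values, and the genes near Ccr1 and Fpr2 were chosen after values were seen. Alternatives changed the normalization, the threshold, the variance model, the probe set rule or the filter on dim signals, left out each array, blocked on the replicate number, weighted the arrays, tested against a 1.2-fold change or added a covariate. List counts without an array or with a covariate, and within-array ratios from other probe sets, were added after seeing the data.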

Additional observations from a re-analysis of the deposited data

How the results depend on the processing

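Of 321 values of single receptor probe sets under the alternatives, 272 kept their direction and side of the threshold, 19 lost a call, 10 gained one and 20 changed sign. Of the 20 that changed sign, none had been called. Quantile normalization, median centring, both filters on dim probe sets, the variance trend with robust estimation, array weights and the block kept the calls of Ccr1 1419609_at, Ccr2 1421187_at and Fpr2. The count of receptor probe sets past the threshold, 3 as reported, was 5 with array weights, 5 at a threshold of 0.10, 1 at 0.01, 1 against a 1.2-fold change and 0 with the index of 3' to 5' signal, with the muscle list mean or with the hybridization controls as a covariate. With 1 array left out it lay between 1 and 4. Array weights also raised the count over all probe sets from 5541 to 7571, and that over genes from 2771 to 3719. Over all probe sets the count of 5541 became 1214 at 0.01, 8489 at 0.10, 901 against a 1.2-fold change and 112, 10 and 100 with the index, the hybridization controls and the muscle mean as covariates, and lay between 1683 and 5581 with 1 array left out. Over genes the count of 2771 became 526, 4243, 237, 21, 1 and 74 in the same order, and lay between 685 and 3248 with 1 array left out. The cause of these changes was not tested, beyond the higher or lower threshold itself.

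Same-numbered arrays of the crosses deviated from their group means with correlations of 0.05, 0.02 and 0.08 across probe sets. Differently numbered arrays were not compared in this way, so these values do not settle whether the number pairs the samples. With the replicate number as a block, 5 receptor probe sets passed, among them C5ar1 1422190_at (0.48, adjusted p = 0.0316 in limma) and Ccr2 1421186_at (-0.50, adjusted p = 0.0417 in limma), beside 5321 probe sets and 2357 genes in all, and the block changed no other receptor call.

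The sign changes were in values near 0 or in fits with a covariate. Cx3cr1 1450020_at was 0.0038 after quantile normalization, 0.12 with array weights, 0.17 with the 3' to 5' index and 0.28 with the muscle list mean, and Ccr2 1421188_at 0.012, 0.087 and 0.21 after quantile normalization and with those covariates. Cxcr4 was -0.020 with the index and -0.031 with the muscle mean, and C3ar1 1419483_at -0.12 with the muscle mean. With the hybridization controls C5ar1 1422190_at was -0.27, Ccr1 1419610_at 0.40 and Cx3cr1 1450019_at -0.28. With 1 array left out, Cx3cr1 1450020_at ranged from -0.19 to 0.11, Cx3cr1 1450019_at from -0.0024 to 0.23, Ccr2 1421188_at from -0.092 to 0.11, Cxcr4 minus neutrophil markers from -0.10 to 0.18 and Cx3cr1 minus monocyte markers from -0.11 to 0.20. With another probe set in place of the brightest, chosen after seeing the data, Ccr2 minus Ccr1 was -0.72 (Ccr2 1421187_at) and -0.19 (Ccr1 1419610_at), and Ccr2 minus monocyte markers 0.035 (1421188_at) and 0.29 (1460067_at). The cause was not tested. Dim probe sets such as those of C3ar1 have no detection calls here, so small differences in them cannot be read.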
